A study of Saccharomyces cerevisiae YPS1009 with 18 samples.

Results

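The comparison asked which yeast genes, supplied as an extra plasmid copy, followed a different course between day 1 and day 28 of culture in cells with and without a duplicated chromosome XII. It used 12 of the 18 barcode-sequencing libraries of the screen, those of day 1 and day 28, and left out the 6 starting pools. For each plasmid the change from day 1 to day 28 in the euploid strain was subtracted from the change in the aneuploid strain, on the log2 scale. This strain difference is positive where the plasmid gained more, or lost less, in the aneuploid cells. All plasmids of the library were members. Of 4872 rows in the count table, 4278 had enough counts to be tested, and 167 had no count in any of the 12 libraries.

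Both strains were haploid MATa ho derivatives of YPS1009, an isolate from oak soil. AGY1611 was euploid, and AGY1612 carried a second copy of chromosome XII. The strain list gives AGY1611 a NatMX marker on chromosome XII and AGY1612 the markers His3MX6 and NatMX in a his3 deletion background, whereas the methods call both strains dual-marked. Each received the MoBY library, low-copy centromeric plasmids that each hold 1 yeast gene between its native flanking sequences, a DNA barcode and resistance to G418, and grew in YPD with G418 as 3 replicate cultures per strain. At each time a portion was plated on the same drug, and the barcodes were read from the lawns, so an abundance describes cells that could still divide on a plate. The sample labels name the strains by number only, and the ploidy comes from the design text, the methods and the header of the table. Each strain is a single line, so a difference between the strains cannot be told apart from other differences between these lines. The 3 replicates came from 2 transformations of the library, and which cultures share one was not given, so the p-values measure the spread between these cultures, part of which may be technical. Plasmid barcodes carry no information on the chromosome XII copy itself, which was not checked here.

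Chronological aging is the loss of the ability to resume division in cells that have stopped growing after using up their glucose. Such cells live by respiration, and the respiratory chain in mitochondria ends in cytochrome c oxidase. Its core subunit Cox1 is made inside the organelle and inserted with the help of assembly factors encoded in the nucleus, several of which also restrain further Cox1 synthesis until the subunit has been used.

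The libraries held between 503569 and 1925967 counts, and abundances are CPM, that is, counts rescaled to a common library total of 1e6 with trimmed-mean (TMM) factors. The same culture was sampled on both days, and each culture was followed as a pair. The plasmid without a cloned gene had between 181 and 317 counts in the 4 libraries of replicate 2, in both strains, and at most 3 counts in the other 8. Cultures of one strain shared little of their course. Over plasmids, the changes of 2 cultures correlated with r between 0.0916 and 0.212 within AGY1611 and between 0.0262 and 0.248 within AGY1612, and between the strains r lay between -0.0225 and 0.281. These r values describe pairs of cultures over plasmids, which are not independent replicates.

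After day 1 the strains diverged at 5 plasmids. The quasi-likelihood test of edgeR, adjusted over all 4278 plasmids (false discovery rate, FDR, below 0.1), called 0.117% of plasmids. The plasmid of COA1, an early assembly factor of cytochrome c oxidase, gained more in AGY1612, and 1 called plasmid is 0.0234% of those tested. Those of SBP1, SOK1, NPL3 and OM14 lost more, 4 plasmids or 0.0935%. At an unadjusted p under 0.05 there were 192 plasmids (4.49%), 94 higher and 98 lower. DESeq2 called 52 at the same threshold and limma-voom 1, which was COA1. The strain difference over all plasmids had a median of 0.03 and its 5th and 95th percentiles lay at -1.96 and 2.28. The changes of the 3 aneuploid cultures lay all above those of the 3 euploid cultures for 221 plasmids (5.17%) and all below them for 231 (5.4%).

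Changes within a strain were called in the aneuploid cultures. Between day 1 and day 28, 18 plasmids were called in AGY1612 (0.421%), 5 that rose (0.117%) and 13 that fell (0.304%). In AGY1611 edgeR called 0 plasmids (0%), with 215 (5.03%) at an unadjusted p under 0.05, while DESeq2 called 37 and limma-voom 0. A call in one strain and none in the other is not a test of the difference. The strain difference itself, of which the AGY1612 change is one part, had an unadjusted p under 0.05 for the 18 plasmids called in AGY1612, and 5 of them passed FDR < 0.1. At day 1 edgeR called 0 plasmids between the strains (0%), with 254 (5.94%) at an unadjusted p under 0.05 and 17 called by DESeq2. At day 28 edgeR called 11 (0.257%), with AGY1612 above AGY1611 for 4 (0.0935%) and below it for 7 (0.164%).

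**Figure D1:**
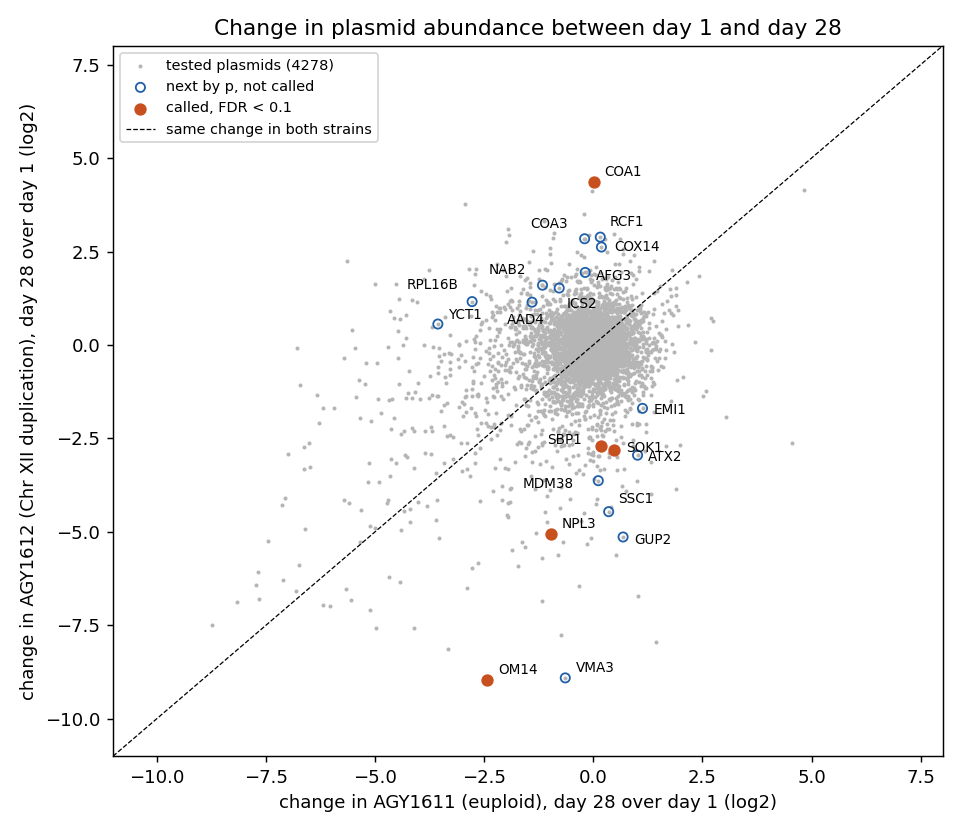
Change in abundance from day 1 to day 28 (log2) of each of the 4278 tested plasmids, AGY1611 on the horizontal axis and AGY1612 on the vertical. The filled points are the 5 called plasmids, the open circles the next plasmids by p that were not called, and the dashed line marks an equal change; COA1 stands at 0.01 and 4.37.

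COA1 had the lowest p of all plasmids. Coa1 sits in the inner mitochondrial membrane and binds newly made Cox1 on its way to the later assembly factor Shy1. In AGY1611 its plasmid stood at 338, 237 and 412 CPM at day 1 (replicates 1, 2 and 3) and at 295, 230 and 496 CPM at day 28. In AGY1612 the values were 211, 146 and 108 CPM at day 1 and 4360, 10000 and 651 CPM at day 28. All 3 aneuploid cultures ended above all 3 euploid cultures, although they had started below them. The log2 change was 4.37 ± 0.48 (SE) in AGY1612 and 0.01 ± 0.40 in AGY1611, a difference of 4.36 ± 0.62 (FDR = 0.000401). By day 28 COA1 was the most abundant plasmid of AGY1612 replicates 1 and 2, with 0.441% and 0.941% of all counts. The difference kept its call when any 1 culture was left out, with values between 3.49 and 5.21.

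SBP1 fell in every aneuploid culture. Sbp1 is an RNA-binding protein with arginine-glycine (RGG) repeats that represses translation. Its plasmid stood at 603, 839 and 856 CPM in AGY1611 at day 1 and at 509, 1150 and 1060 CPM at day 28. In AGY1612 it went from 428, 602 and 516 CPM to 47.1, 93.9 and 104 CPM. The aneuploid values lay just below the euploid ones at day 1 and far below them at day 28. The log2 change was -2.71 ± 0.42 (SE) in AGY1612 against 0.18 ± 0.39 in AGY1611, a difference of -2.89 ± 0.56 (FDR = 0.0384).

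NPL3 encodes a second RGG protein, a nuclear factor that accompanies mRNA to the cytoplasm. In AGY1611 its plasmid went from 488, 305 and 288 CPM to 183, 152 and 204 CPM. In AGY1612 it went from 293, 429 and 314 CPM to 5.89, 3.98 and 31.5 CPM. The plasmid was lower at day 28 in all 6 cultures, and by more in every aneuploid culture than in any euploid one. The log2 difference was -4.07 ± 0.89 (SE, FDR = 0.0836), from a change of -5.05 ± 0.72 in AGY1612 and -0.97 ± 0.57 in AGY1611.

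SOK1 was isolated as a gene that, at high copy, restores growth to cells lacking protein kinase A. Its plasmid varied widely among the cultures at day 1, with 120, 621 and 301 CPM in AGY1611 and 632, 247 and 381 CPM in AGY1612. By day 28 it stood at 276, 898 and 241 CPM in AGY1611 and at 108, 28.7 and 53.9 CPM in AGY1612. The groups overlapped at day 1 and no longer at day 28. The 3 aneuploid cultures changed by -2.53, -3.04 and -2.78 on the log2 scale, and the strain difference was -3.29 ± 0.68 (SE, FDR = 0.0585).

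OM14 encodes a protein of the mitochondrial outer membrane that binds porin and receives ribosomes at the organelle. Its plasmid was lower at day 28 than at day 1 in all 6 cultures. In AGY1611 it went from 290, 516 and 159 CPM to 2.51, 180 and 94.9 CPM. The AGY1612 cultures went from 267, 453 and 416 CPM to 0, 0.796 and 1.02 CPM, which rest on 0, 1 and 1 counts. Euploid replicate 1, with 3 counts at day 28, came close to the aneuploid cultures, and the other 2 stayed well above them. Day 1 over day 28 in AGY1612 was a ratio of 521, with an exact 95% interval of 144 to 4300 that covers counting error only. The fitted strain difference was -6.53 ± 1.45 on the log2 scale (SE, FDR = 0.0836), and it depends on the prior used for such low counts.

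The calls of the 4 falls depended more on single cultures than the call of COA1 did. Leaving out AGY1612 replicate 1 took SBP1 to an FDR of 0.154, leaving out its replicate 2 to 0.107, leaving out AGY1611 replicate 2 to 0.392 and its replicate 3 to 0.25. SOK1 passed without AGY1612 replicate 3 and without AGY1611 replicate 3 only, and reached 0.149, 0.107, 0.193 and 0.421 without AGY1612 replicates 1 and 2 and AGY1611 replicates 1 and 2. For NPL3 the call held without AGY1612 replicate 3 alone and reached 0.23 and 0.464 without its replicates 1 and 2, and 0.166, 0.392 and 0.34 without AGY1611 replicates 1, 2 and 3. OM14 lost its call without AGY1612 replicates 1 and 2 (0.154 and 0.119) and without AGY1611 replicates 2 and 3 (0.693 and 0.477). The sign of the difference was the same in each of these fits. Without pairing the days within a culture, COA1 alone passed (FDR = 0.0484).

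**Figure D2:**
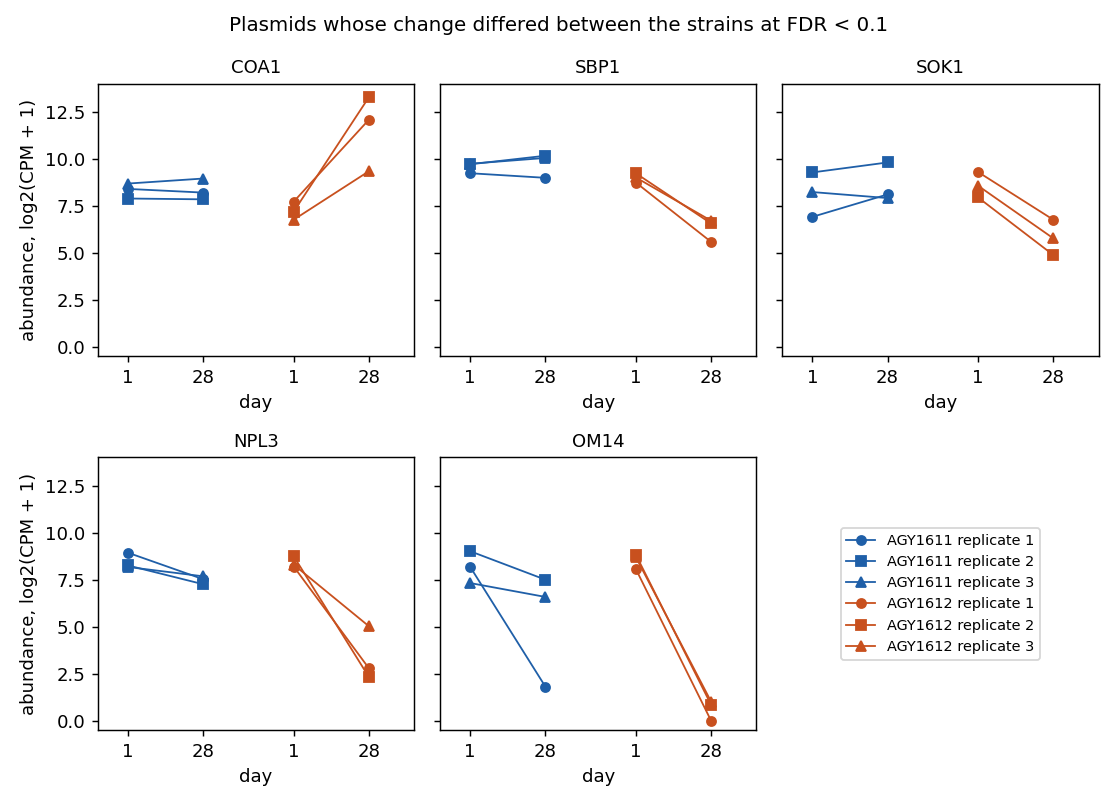
Abundance (log2 of CPM + 1) of the 5 called plasmids at day 1 and day 28, 1 line per culture, AGY1611 in blue and AGY1612 in orange. COA1 rose in the 3 orange cultures and stayed level in the 3 blue ones, whereas the other 4 plasmids fell in all 3 orange cultures.

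The COX1 translation and early assembly list split in both directions. It names 12 genes, of which 9 were tested. Beside COA1, unadjusted p-values under 0.05 were found for COA3 and COX14, higher in AGY1612, and for COA2 and SHY1, lower, so that 3 were higher and 2 lower where 2.2% and 2.29% of all plasmids were. The list median was 0.10 against 0.03 over all plasmids. DESeq2 called COA1, COA3, COX14 and COA2. COA1 and COX14 were placed in the list with their earlier results known.

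Coa3 and Cox14 bind newly made Cox1 together with the COX1 translation activator Mss51 and hold back further synthesis. The COA3 plasmid went from 54.4, 129 and 138 CPM to 826, 1000 and 433 CPM in AGY1612. In AGY1611 it moved from 164, 269 and 150 CPM to 199, 168 and 132 CPM. Again the aneuploid cultures began below the euploid range and ended above it. The strain difference was 3.04 ± 0.73 on the log2 scale (SE, FDR = 0.143).

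COX14 was higher at day 28 than at day 1 in the 3 aneuploid cultures, by unequal amounts. AGY1612 replicates 1, 2 and 3 went from 262, 361 and 683 CPM to 2830, 5030 and 866 CPM, changes of 3.42, 3.79 and 0.34 on the log2 scale. The AGY1611 cultures went from 527, 405 and 375 CPM to 616, 438 and 438 CPM. Replicate 3 of AGY1612 moved little more than the euploid cultures. The difference was 2.43 ± 0.65 (SE, FDR = 0.256), and without that culture it was 3.41 with an FDR of 1.34e-05. Leaving out AGY1612 replicate 1 or 2 instead took it to 1.85 and 1.70, with FDR values of 0.928 and 0.814, and it did not pass without any 1 of the AGY1611 cultures either (FDR from 0.468 to 0.693). For COA3, leaving out AGY1612 replicate 3 gave 3.61 and an FDR of 0.0152, and each of the other 5 omissions gave 2.46 to 3.24 and an FDR of 0.193 or above.

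Shy1, the yeast counterpart of human SURF1, and Coa2 act at the next step, when heme is built into Cox1. The SHY1 plasmid in AGY1612 went from 104, 177 and 65.8 CPM to 5.89, 8.76 and 47.8 CPM, and in AGY1611 from 116, 93.2 and 387 CPM to 162, 102 and 250 CPM. COA2 went from 348, 237 and 790 CPM to 151, 59.7 and 200 CPM in AGY1612, and from 535, 251 and 382 CPM to 955, 206 and 367 CPM in AGY1611. For SHY1 the culture changes of the strains overlapped, since AGY1612 replicate 3 changed by -0.45 and AGY1611 replicate 3 by -0.63. Those of COA2 did not overlap. The log2 differences were -2.94 ± 1.16 for SHY1 (SE, FDR = 0.898) and -1.89 ± 0.64 for COA2 (FDR = 0.654), so neither passed the threshold.

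The other tested members, MAM33, PET117, PET54 and MRS1, differed by 0.10 ± 0.58, 0.26 ± 0.79, -0.28 ± 0.67 and -1.90 ± 2.01 (SE). MSS51 and PET309, both activators of COX1 translation, had too few counts to be tested, and MSS51 was at 0 in all 6 day 28 libraries. Of 20 tested plasmids for copper and heme A delivery and other later factors, edgeR gave 0 an unadjusted p under 0.05, with a median of -0.07. Among 7 nuclear-encoded oxidase subunits the count was 0 as well, with a median of 0.17. Over all plasmids 4.49% had such a p.

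At 3 places on the chromosomes a member of this list and the gene beside it shifted in the same direction, a pattern noticed after the values were seen. The library's inserts include native flanking sequence, and whether an insert reaches into the neighbouring gene was not tested. Next to COA3 lies MRPL8, a protein of the large mitochondrial ribosomal subunit. Its plasmid went from 47.9, 121 and 231 CPM to 375, 1040 and 282 CPM in AGY1612 and from 279, 157 and 187 CPM to 57, 216 and 187 CPM in AGY1611. The difference was 2.73 ± 0.89 (SE, unadjusted p = 0.00472, FDR = 0.596), beside 3.04 for COA3, and here too AGY1612 replicate 3 changed least.

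GUP2, which encodes a probable membrane O-acyltransferase, neighbours COA2. It went from 163, 72.8 and 221 CPM to 1.96, 0.796 and 18.3 CPM in AGY1612, while the AGY1611 cultures went from 23.5, 82.7 and 10.5 CPM to 49.4, 100 and 17.4 CPM. It was lower at day 28 in all 3 aneuploid cultures and higher in all 3 euploid ones. Its difference was -5.82 ± 1.48 (SE, FDR = 0.215), against -1.89 for COA2.

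YGR111W, named here after its values were seen, neighbours SHY1. In AGY1612 it went from 582, 122 and 167 CPM to 78.5, 1.59 and 41.7 CPM, and in AGY1611 from 101, 97.4 and 46 CPM to 199, 70.7 and 96.2 CPM. It was lower at day 28 in all 3 aneuploid cultures, with a difference of -3.89 ± 1.10 (SE, FDR = 0.315). Over 3072 pairs of adjacent genes the strain differences correlated with r = 0.00205, and over the 1499 pairs with at least 100 CPM on average with r = 0.0213. For the 43 named plasmids, 62 neighbours were tested, and 32 had the sign of the named gene.

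**Figure D3:**
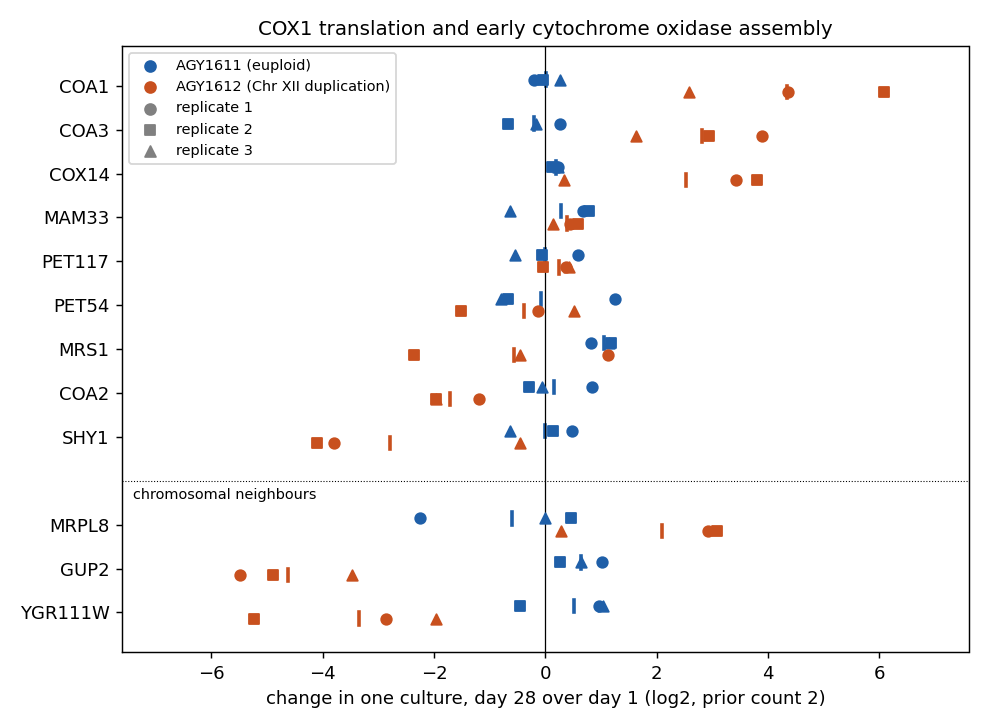
Change from day 1 to day 28 in each culture (log2) for the 9 tested genes of the COX1 list, and below the dotted line for the neighbours of COA3 (MRPL8), COA2 (GUP2) and SHY1 (YGR111W). Bars mark the mean of 3 cultures; the orange AGY1612 points of COA1, COA3 and COX14 lie to the right of the blue AGY1611 points and those of COA2 to the left.

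Other mitochondrial genes stood among the next plasmids by p in each direction, with FDR values of 0.12 and above. AFG3 encodes a subunit of the inner-membrane m-AAA protease. Its plasmid went from 214, 860 and 576 CPM to 2140, 2380 and 1240 CPM in AGY1612, and from 1230, 427 and 982 CPM to 1010, 547 and 635 CPM in AGY1611. The difference was 2.13 ± 0.56 (SE, FDR = 0.236). YTA12, its partner subunit, differed by 0.20 ± 1.34, with changes of 2.00 ± 0.98 in AGY1612 and 1.80 ± 0.98 in AGY1611.

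Rcf1 helps cytochrome c oxidase join complex III in supercomplexes. The RCF1 plasmid rose in AGY1612 from 76.5, 169 and 69 CPM to 487, 1320 and 562 CPM, a log2 change of 2.89 ± 0.57 (SE, FDR = 0.00833). In AGY1611 the cultures disagreed, going from 149, 72.2 and 119 CPM to 113, 28.6 and 587 CPM. The strain difference was 2.72 ± 0.81 (FDR = 0.425), and the related gene RCF2 differed by -1.68 ± 1.80.

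On the losing side, MDM38 encodes the yeast LETM1 protein, which takes part in potassium exchange and binds mitochondrial ribosomes. Its plasmid went from 411, 525 and 327 CPM to 31.4, 47.8 and 24.4 CPM in AGY1612. In AGY1611 it stayed between 82.6 and 125 CPM throughout. The aneuploid cultures crossed from above the euploid range to below it, with a strain difference of 2.08 at day 1 and -1.65 at day 28. The difference in change was -3.75 ± 0.87 (SE, FDR = 0.12). Its paralogue YLH47 differed by -3.16 ± 1.37 (unadjusted p = 0.0283). The YLH47 culture changes overlapped, at 3.76, 0.74 and -1.26 in AGY1611 and -0.35, -3.60 and -2.27 in AGY1612.

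SSC1, the main Hsp70 chaperone of the mitochondrial matrix, went from 158, 192 and 286 CPM to 9.82, 0 and 46.8 CPM in AGY1612. In AGY1611 it went from 213, 75.4 and 30.4 CPM to 300, 49.2 and 69.5 CPM. The difference was -4.81 ± 1.30 (SE, FDR = 0.256). Among 16 tested genes of porin and the outer membrane, OM14 was lower at FDR < 0.1, and the sorting-machinery genes SAM50 and SAM35 were higher at an unadjusted p under 0.05, with differences of 1.62 ± 0.64 and 1.43 ± 0.59. Over all plasmids 2.2% were higher and 2.29% lower at that p, and the median of the outer membrane list was 0.14. OM45, which works with OM14, was at 0 counts in all 6 day 28 libraries of both strains.

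In the list of RGG-motif and mRNA-binding proteins, 19 were tested. SBP1 and NPL3 were called lower, TIF4632 was lower and NAB2 higher at an unadjusted p under 0.05, and the median was -0.03. The other 15 had higher p-values. Over all plasmids 0.0935% were called lower, and 2.2% were higher and 2.29% lower at an unadjusted p under 0.05. SBP1 and NPL3 were placed in the list with their earlier results known. Nab2, a nuclear poly(A)-binding protein needed for mRNA export, moved opposite to Npl3. Its plasmid went from 449, 155 and 57.8 CPM to 760, 721 and 204 CPM in AGY1612, and from 115, 698 and 63.8 CPM to 53.6, 143 and 62.8 CPM in AGY1611, a difference of 2.76 ± 0.76 (SE, FDR = 0.256). For TIF4632, which encodes the translation initiation factor eIF4G2, it was -1.51 ± 0.70.

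Some plasmids counted in every day 1 library were no longer counted at day 28. Of 3523 plasmids with at least 10 counts in all 6 day 1 libraries, 0 had no count left at day 28 in AGY1611 and 4 in AGY1612. Library totals went from 1907947 to 503569, 1925967 to 1338206 and 1222135 to 965914 in AGY1612 (replicates 1, 2 and 3). In AGY1611 they went from 1104929 to 1125838, 904993 to 1302971 and 1037173 to 717911. A fall in depth brings low counts to 0 more easily, and these losses were not counted at equal depth. For VMA3 and SNF7 the AGY1611 cultures still held at least 10 counts each. Vma3 is the proteolipid ring subunit of the vacuolar proton pump. In AGY1612 it went from 70.6, 14.7 and 93.1 CPM to 0 in the 3 cultures, at least 54.4-fold lower against a floor of 3 counts over the group. In AGY1611 it went from 17.9, 63.9 and 421 CPM to 31.8, 31.8 and 138 CPM. The FDR of the difference was 0.143. VMA3 alone of 15 tested vacuolar ATPase plasmids had an unadjusted p under 0.05, as 4.49% of all plasmids did.

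SNF7, the main filament protein of endosomal sorting and a chromosome XII gene, was named after its values were seen. In AGY1612 it went from 24.8, 13.1 and 36.9 CPM to 0 in the 3 cultures, and in AGY1611 from 47.9, 46.1 and 26.2 CPM to 24.3, 9.53 and 54.8 CPM. The FDR of its difference was 0.919. The reverse case, no count at day 28 in AGY1611 with at least 10 counts in each AGY1612 culture, was found for 0 plasmids with 10 counts at day 1 everywhere. The same limit of depth applies to this comparison. RNR2, the small subunit of ribonucleotide reductase, came nearest to it among the named plasmids. Its 3 AGY1611 cultures went from 34.8, 57.6 and 17.8 CPM to 0, 0.794 and 0 CPM (1 count in all), while AGY1612 went from 21, 35.4 and 41.7 CPM to 23.6, 35 and 31.5 CPM. Day 1 over day 28 in AGY1611 was 117, with an exact 95% interval of 21.1 to 4640, and the strain difference had an unadjusted p of 0.00774 and an FDR of 0.693.

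In a further group the fitted changes had opposite signs in the strains, without a call. YCT1, a cysteine transporter gene of chromosome XII, went from 689, 110 and 25.1 CPM to 88, 10.3 and 0 CPM in AGY1611 and from 56.6, 127 and 149 CPM to 200, 197 and 86.4 CPM in AGY1612. RPL16B, a protein of the large cytosolic ribosomal subunit, went from 213, 206 and 62.8 CPM to 71.2, 16.7 and 6.68 CPM in AGY1611, and from 17.8, 119 and 92.3 CPM to 72.6, 404 and 71.2 CPM in AGY1612. In AGY1612 replicate 3 both plasmids fell, and the fitted AGY1612 changes were 0.56 ± 0.71 and 1.16 ± 0.79 (SE). Non-overlap of the culture changes was a condition for naming both, and 5.17% of all plasmids met it in this direction. The strain differences of YCT1 and RPL16B were 4.12 ± 1.06 and 3.94 ± 1.14 (SE, FDR = 0.22 and 0.351). AAD4 encodes a putative aryl-alcohol dehydrogenase and ICS2 a protein of unknown function, and their changes were -1.40 in AGY1611 and 1.15 in AGY1612 for AAD4 and -0.78 and 1.52 for ICS2. For EMI1, needed for early meiotic gene expression, they were 1.13 and -1.69, and for ATX2, a manganese-handling gene of the Golgi, 1.02 and -2.95.

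Whether a strain difference in change began or ended in a difference between the strains was read from each day. Of the 192 plasmids with an unadjusted p under 0.05, the strains lay further apart at day 28 for 112 and at day 1 for 80. For 141 the sign of the strain difference changed between the days. These plasmids were chosen by the difference between the days, and that choice favours opposite signs. No share over all plasmids was computed for any of these counts, so no conclusion is drawn from 112 against 80 or from 141. COA1 went from -1.09 at day 1 to 3.88 at day 28, SBP1 from -0.57 to -3.46, SOK1 from 0.27 to -2.91, NPL3 from -0.06 to -3.66 and OM14 from 0.23 to -6.83. Each of the 5 was further apart at day 28, and for COA1, SOK1 and OM14 the sign had changed. MDM38, GUP2 and ATX2 began at 2.08, 1.97 and 2.03, higher in AGY1612, and ended at -1.65, -2.94 and -1.41.

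**Figure D4:**
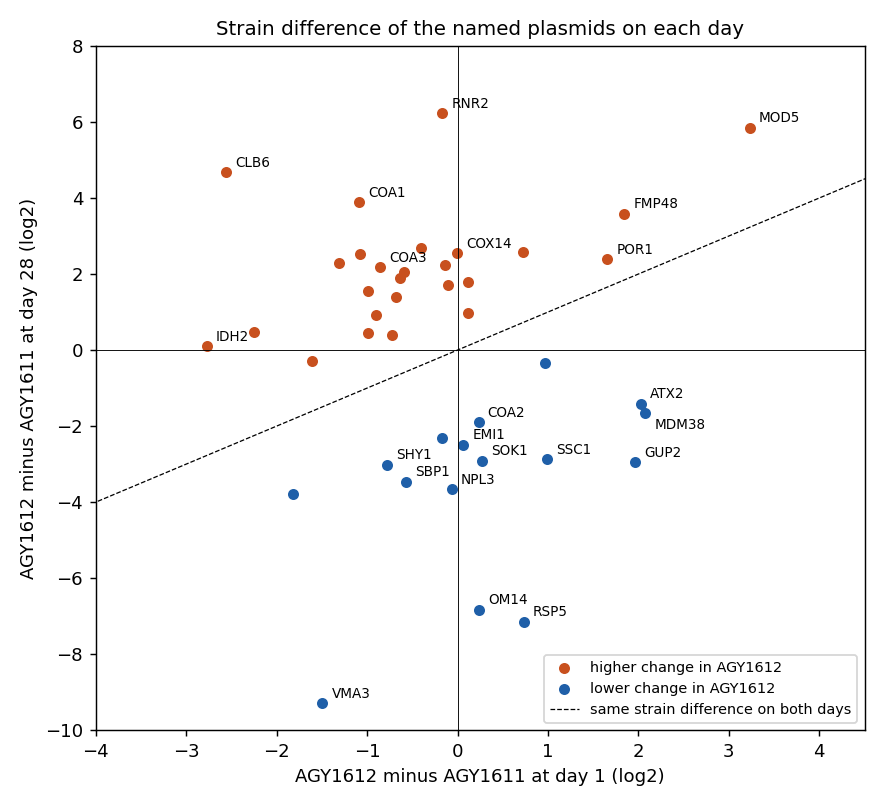
Strain difference (AGY1612 minus AGY1611, log2) at day 1 on the horizontal axis and at day 28 on the vertical axis for 42 of the 43 named plasmids, without YTA6, which had almost no counts. Points on the dashed line would have the same difference on both days; COA1 lies at -1.09 and 3.88, and MDM38 at 2.08 and -1.65.

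An earlier comparison with the starting pools had singled out 10 genes. That comparison used the same day 28 libraries, and its genes are no independent evidence here. POR1, the mitochondrial porin, stood at 107, 113 and 140 CPM in AGY1611 and 402, 306 and 429 CPM in AGY1612 at day 1. By day 28 it stood at 116, 78.6 and 147 CPM and at 772, 585 and 422 CPM. The cultures of the strains did not overlap on either day. The log2 difference was 1.66 at day 1 (FDR = 0.799, not called) and 2.38 at day 28 (FDR = 0.0733), and the difference in change was 0.73 ± 0.67 (SE, unadjusted p = 0.281). FMP48, another mitochondrial protein, differed by 1.85 at day 1 (FDR = 0.799) and 3.59 at day 28 (FDR = 0.0733), and in its change by 1.74 ± 0.99 (edgeR, unadjusted p = 0.0902). For MOD5, a tRNA modification enzyme, the differences were 3.23 and 5.85 (FDR = 0.805 and 0.341), with a difference in change of 3.10 ± 2.45. SEC2, an exchange factor of the secretory pathway, differed in its change by 1.61 ± 0.99, and YTA6, with 1 count in AGY1611 at day 1, by 1.16 ± 4.53. Of the 10, COA1, SBP1 and NPL3 passed FDR < 0.1 over all plasmids.

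Ribosome quality control clears stalled ribosomes and their incomplete chains, and 14 of its plasmids were tested. In edgeR 0 had an unadjusted p under 0.05, DESeq2 and limma-voom called 0, and the median was -0.31. RQC1, a subunit of the complex that tags these chains with ubiquitin, went from 150, 421 and 228 CPM to 395, 361 and 622 CPM in AGY1612 and from 390, 107 and 238 CPM to 288, 60.4 and 359 CPM in AGY1611. The groups overlapped on both days, and the difference was 1.10 ± 0.71 (SE, unadjusted p = 0.135). A partial list of screen hits and genes tested further, with 15 plasmids tested, likewise held 0 at an unadjusted p under 0.05 in edgeR. It had 0 calls by DESeq2 and limma-voom and a median of 0.37. Over all plasmids 4.49% had such a p in edgeR. The partial list left out other genes that the study tested further. Of these, AFG3 and CLB6 had an unadjusted p of 0.000663 and 0.00917 (edgeR). CLN2, CLN3, PCL2, PRE1, RPN11 and YGP1, also left out, did not reach 0.05. The study called its hits at day 28 against the starting library. It also compared day 28 with day 1 in AGY1612 and set apart the hits that were more enriched at day 28. It read these as acting on life span, and many of them encode mitochondrial proteins. RQC1 was placed among the hits already enriched at day 1. The strain difference in the change after day 1 is another measure, since it subtracts the change in AGY1611. The partial list also holds genes chosen apart from the screen, such as UBI4.

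Among 30 proteasome and 30 autophagy genes 0 reached an unadjusted p under 0.05, and the same count of 0 was found in 17 genes of the ATP synthase, 23 of antioxidant defence, 17 of trehalose and glycogen metabolism and 10 of the sirtuins and silencing. The medians of these 6 lists lay between -0.16 and 0.29. Over all plasmids 4.49% reached that level, so few or no members in lists of this size lie near that share. Single members passed that level elsewhere. Of 13 tested for complex III and cytochrome c they were QCR2 (1.48 ± 0.72) and the cytochrome b translation factor CBP6 (1.31 ± 0.63). In the citric acid cycle, with 11 tested, it was IDH2 (2.50 ± 1.16). Of 60 mitochondrial ribosomal proteins, MRPL8 was higher and MRPL40 lower (-4.36 ± 1.81), with a median of 0.03.

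In nutrient signalling the Ras exchange factor CDC25 was higher (2.78 ± 1.16) and the stress transcription factor MSN4 lower (-3.61 ± 1.48), out of 22 tested. The ubiquitin list, with 18 tested, held RPL40A, higher (1.37 ± 0.63), and the ligase RSP5, lower. RSP5 had 0 counts in the 3 AGY1612 cultures at day 28 and 51 counts in those of AGY1611. SIP18 of the stationary-phase list (3.23 ± 1.06, 21 tested) and the cyclin CLB6 (6.71 ± 2.40, 18 tested in its list) were higher. For CLB6, AGY1612 replicate 1 stood at 618 CPM at day 28 and the other 2 at 3.98 and 3.05 CPM.

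**Figure D5:**
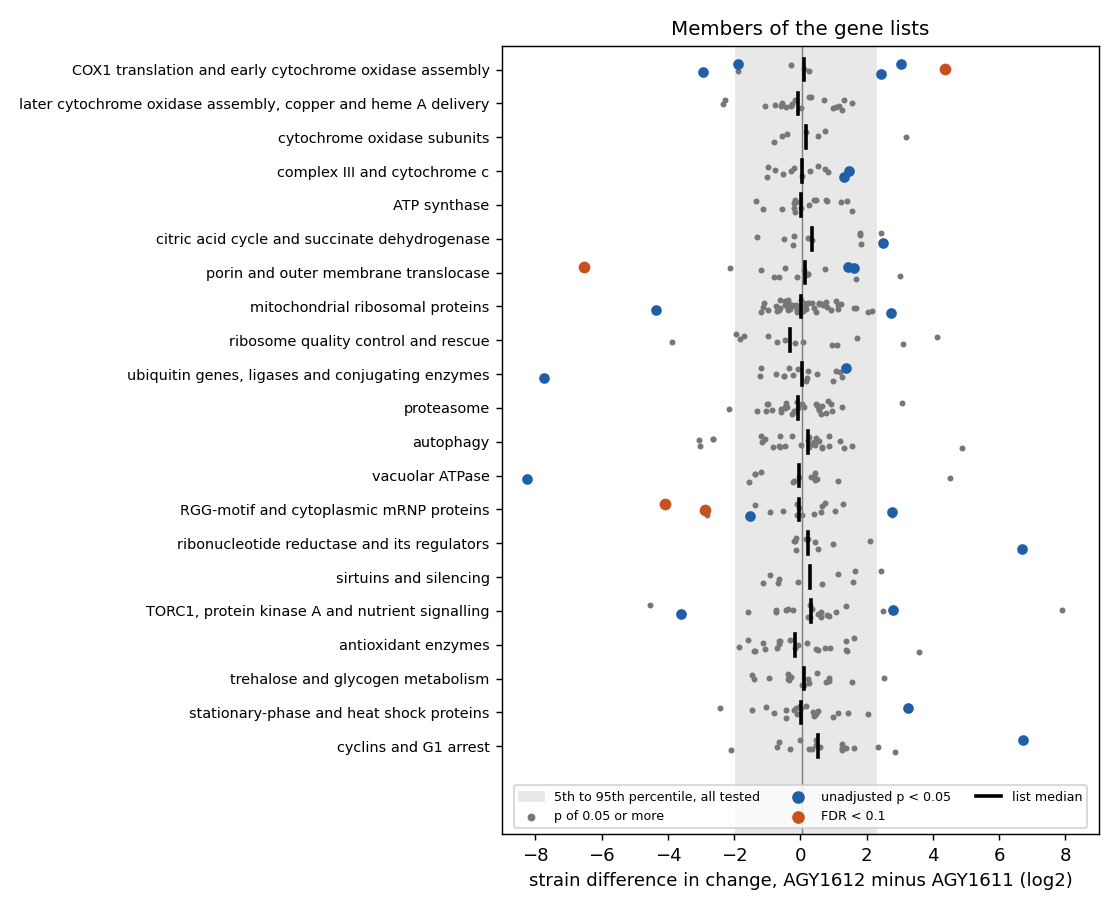
Strain difference in change (log2) of every tested member of 21 gene lists, 1 row per list. The grey band spans the 5th to 95th percentile of all tested plasmids, from -1.96 to 2.28, and the black bars are list medians; orange points passed FDR < 0.1 and blue points an unadjusted p under 0.05.

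Genes of chromosome XII, present in an additional copy in AGY1612, were counted apart. Of 391 tested, 6 were higher and 7 lower at an unadjusted p under 0.05, where 2.2% and 2.29% of all plasmids were, and edgeR called 0 at FDR < 0.1, DESeq2 3 and limma-voom 0. Their median was 0.06 against 0.03 for the 3880 plasmids of the other chromosomes. Chromosome XII ranked 6 of 16 by this median, and the chromosomes ranged from -0.10 (III) to 0.20 (II). YCT1 had the lowest p of its genes.

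No strain difference was detectable in how far the pools as a whole narrowed. The effective number of plasmids, the exponential of the Shannon entropy of the count shares, changed by 233, -374 and 91.8 between day 1 and day 28 in the 3 AGY1611 cultures and by -71.5, -341 and -43.5 in those of AGY1612. The means were -16.2 ± 317 and -152 ± 164 (SD, n = 3), and their difference of -136 lay within the spread of the cultures (exact two-sided permutation test, p = 0.6, where 0.1 is the smallest p that 3 against 3 can give). The number of plasmids with no count grew by 414 ± 239 and 302 ± 262 (p = 0.6 by the same exact test). Leaving out AGY1611 replicate 2 or AGY1612 replicate 3 turned the sign of this second difference, from -111 to 14.8 and 32.8. Precision followed abundance. The SD of the strain difference was 2.67 over the 304 plasmids under 20 CPM and 0.70 over the 1278 above 300 CPM, and 3 of the 5 called plasmids lay in that highest class. For 40 genes with both of 2 library entries tested, the entries had the same sign in 19 and correlated with r = 0.236, and over the 16 pairs with at least 100 CPM the same sign was found in 7, with r = -0.26.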

How the data were processed

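Barcode counts of the 12 day 1 and day 28 libraries were analysed, 3 per strain and time. The authors deposited raw, non-normalized counts of barcode reads per plasmid, and the counting program and genome build were not given in the sources used here. Of 4872 rows, 4865 matched the RefSeq gene table of assembly R64, used for symbols, chromosomes and the order of genes, and 7 did not. For 54 genes a pair of entries was kept apart.

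Counts were fitted in R 4.3.3 with edgeR 4.0.16 (filterByExpr by group, TMM factors, glmQLFit, glmQLFTest, two-sided, Benjamini-Hochberg). The model held 6 culture terms and 1 day 28 term per strain, which left 4 residual degrees of freedom, and the prior degrees of freedom were 24.8. The strain differences at each day came from a fit with 1 coefficient for each of the 4 groups and no block. A standard error is the size of the log2 change over the square root of F. Culture changes on the log2 scale used a prior count of 2. The numbers in the sample titles pair the days: deviations from the group mean correlated in all 6 cultures (r from 0.149 to 0.511), and by 0.0436 on average at day 1 between same-numbered cultures of the strains. All replicate pairs differed by more than counting error (chi-square over degrees of freedom of at least 37.1).

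Named plasmids were those called, the 10 lowest p-values per direction with at least 20 CPM and non-overlapping culture changes, 10 genes known from an earlier analysis, list members at an unadjusted p under 0.05, and RQC1, 43 in all. The members and lists were chosen with earlier results of these data known. Alternatives were limma-voom (limma 3.58.1), DESeq2 1.42.0, other scalings, filters, blocks and samples, and each culture left out. The fits were tested on simulated data. Floors of 3 counts and exact intervals cover counting error only.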

Additional observations from a re-analysis of the deposited data

Results flagged for a closer look

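A test of the difference itself separated the strains at 5 plasmids, the change from day 1 to day 28 in AGY1612 minus that in AGY1611. On the log2 scale it was 4.36 for COA1, -2.89 for SBP1, -3.29 for SOK1, -4.07 for NPL3 and -6.53 for OM14. Groups of 3 libraries are too small for a test of single outlying samples.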

How the results depend on the processing

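The strain difference of COA1 passed FDR < 0.1 in each of 16 other fits, with values from 3.49 to 5.21 and FDR values from 7.9e-13 to 0.0484. SBP1 passed in 10 of them, SOK1 and OM14 in 8 and NPL3 in 7, with the same sign in all 16. At FDR < 0.05 in the fit of the report COA1 and SBP1 passed. Against 5 plasmids, the count was 1 without the replicate block, 17 with a replicate block across strains, 10 with all 18 samples and no block, 12 with all 18 and the culture as a block, 3 with total counts as scaling, 18 without a filter on low counts, 2 with at least 50 counts in 3 libraries, 52 with DESeq2, 1 with limma-voom and 2 at FDR < 0.05. It ranged from 1 to 17 when 1 culture was left out. The value of 17 came without AGY1612 replicate 3. The block across strains, which takes cultures of one number as a pair, called COX14, COA3, AFG3, MDM38 and VMA3 as well, with FDR values from 0.0277 to 0.048. Day 1 deviations of same-numbered cultures of the strains correlated by at most 0.0818. Their changes from day 1 to day 28 correlated by 0.142 on average (0.00325 to 0.281). Between cultures of other numbers the average was 0.077 (-0.0225 to 0.177). What the replicate number shares across strains was not tested.

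For the change in AGY1612, 18 in the report, the count was 8 without the replicate block, 69 and 58 with all 18 samples without and with the culture block, 33 without a filter, 115 with DESeq2, and 11 to 40 with 1 culture left out. In AGY1611, 0 in the report, it was 43 and 25 with all 18 samples, 1 without a filter, 37 with DESeq2 and 0 to 2 with 1 culture left out. At day 1 the count of 0 became 7 with all 18 samples and 17 with DESeq2. At day 28 the count of 11 became 123 with all 18 samples, 76 with DESeq2, 1 with only the 6 samples of that day, 7 at FDR < 0.05, 10 with the replicate number as a block, and 1 to 9 with 1 culture left out. A fit with all 18 samples also shares the spread of the starting pools. The cause of these shifts was not tested.

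The YTA6 difference ranged from -1.48 without AGY1611 replicate 1 to 4.05 without its replicate 2. The change in plasmids with no count, -111 in the report, ranged from -224 to 32.8 with 1 culture left out, and was 14.8 without AGY1611 replicate 2. The effective number kept its sign, from -315 to -11.2. The median over all plasmids was 0.03 with TMM, 0.03 with RLE and -0.05 with total counts, so list medians near zero have no fixed sign. Depth limits plasmids of low abundance, whose standard error had a median of 3.22 under 20 CPM.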

Other observations

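Of the 18 plasmids called within AGY1612, 4 are not described above, and each was lower at day 28. PHO84, the high-affinity phosphate transporter, went from 342, 132 and 373 CPM to 29.4, 29.5 and 30.5 CPM, and in AGY1611 from 283, 168 and 165 CPM to 518, 110 and 136 CPM. The AGY1612 cultures reached almost the same level at day 28 from different starts, a log2 change of -3.10 ± 0.63 (SE, FDR = 0.0131). The strain difference for PHO84 was -3.09 ± 0.84 (FDR = 0.256).

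The other 3 are genes of chromosome XII and the only ones of that chromosome among the 18, that is, 3 of its 391 tested plasmids (0.767%) against 18 of all 4278 (0.421%). SFP1, a transcription factor of ribosomal protein genes, changed by -2.31 ± 0.52 in AGY1612 and -0.81 ± 0.49 in AGY1611. EMP70, an endosomal membrane protein, changed by -2.96 ± 0.68 and -0.47 ± 0.61, and KNS1, a protein kinase of the LAMMER family, by -2.11 ± 0.51 and 0.09 ± 0.48. Their strain differences had FDR values of 0.999, 0.693 and 0.545.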
